A study of Mus musculus with 8 samples.

Results

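A group of 10 genes that build fatty acids and join them into triglyceride was followed across the cell clusters of a browning culture. They are Acly, Acaca, Fasn, Elovl6, Scd1, Scd2, Gpam, Agpat2, Dgat1 and Dgat2. The genes were chosen by name, not by a measured value, but with earlier results of these data known. Of these 10 genes, 9 have at least 1 entry in the authors' table of cluster markers, 47 entries in all, among 3903 gene symbols with 13337 entries in 12 clusters numbered 0 to 11. Elovl6, which lengthens palmitate, has no entry in any cluster, and no value is given for it.

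Fat cells make fatty acids from glucose carbon. ATP citrate lyase (Acly) turns cytosolic citrate into acetyl-CoA, acetyl-CoA carboxylase 1 (Acaca) makes malonyl-CoA from it, and fatty acid synthase (Fasn) assembles palmitate. Elovl6 elongates the chain, and the stearoyl-CoA desaturases Scd1 and Scd2 place a double bond in it. The mitochondrial acyltransferase Gpam adds the first fatty acid to glycerol 3-phosphate, Agpat2 adds the next to give phosphatidic acid, and after removal of the phosphate, Dgat1 or Dgat2 adds the last. The triglyceride is stored in lipid droplets, and the pathway is switched on as preadipocytes become adipocytes.

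The cells were preadipocytes from the inguinal white fat of young adult C57BL/6 mice, either wild type (WT) or lacking both HMGN1 and HMGN2 (DKO, Hmgn1-/- Hmgn2-/-). HMGN1 and HMGN2 bind nucleosomes, the units of DNA wrapped around histones. WT and DKO cells were captured at day 0, before induction, and at day 6, with 2 cultures per genotype and day, so that there were 4 groups of 2 samples and 8 samples in all. The induction medium held insulin, dexamethasone, IBMX, T3 and rosiglitazone and was followed by insulin and T3 alone, for both genotypes. Rosiglitazone activates PPARγ, and insulin and PPARγ are both known to drive lipogenic genes, so every day 6 cell had received agents that act on this pathway. The study asked whether loss of the HMGN proteins speeds browning and whether some preadipocyte populations are found mainly in DKO cells.

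The table pools the cells of all 8 samples. It gives 1 value per gene and cluster, with no sample, genotype or day, so there are no replicates and no SD, and neither the genotypes nor the days could be compared. The loss of Hmgn1 and Hmgn2 could not be checked in the DKO samples for the same reason. The paper gives target values for depth and cell recovery, but those reached per sample and cluster are unknown, and no test was run. Each log2 fold change is the authors' deposited value for the cells of a cluster against all other cells, computed on mean expression with 1 added to each mean, so it understates differences of genes with low means. Beside it stands the percentage of cells in which the gene was detected, within and outside the cluster. A gene that differed by less than 0.25, or that was detected in too few cells, has no entry in that cluster, which does not mean that it was at 0.

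Cluster sizes as a part of all cells, solved from the detection values, ranged from 14.3% for cluster 0 down to 1.5% for cluster 11, with 9.59% for cluster 4. The adipocyte markers, among them Adipoq, Plin1 and Cidec, were higher in clusters 4 and 11 in 7 of the 7 with an entry, of 8 searched, with Cfd having none. Of all symbols, 13.9% were listed as higher in cluster 4 and 25.6% in cluster 11. Median log2 fold changes over the adipocyte markers were 1.42 in cluster 4 and 2.37 in cluster 11. They were not particular to these clusters. In cluster 8, all 5 adipocyte markers listed were higher, at a median of 1.25, and in cluster 6 all 4 listed were higher, at 0.36. Of all symbols, 9.45% were listed as higher in cluster 8 and 18.1% in cluster 6. Of 7 thermogenic genes, 3 have an entry: Cox7a1 was higher in cluster 4 (1.21) and cluster 11 (0.86), Elovl3 (0.52) and Ppargc1a (0.54) were higher in cluster 11, and Ucp1, Cidea, Cox8b and Dio2 have none. The proliferation gene Mki67 was higher in clusters 5, 6 and 9. Of 8 preadipocyte markers, 5 have an entry, and all 5 were lower in clusters 4 and 11. Of all symbols, 39.1% were listed as lower in cluster 4 and 38.1% in cluster 11. All 1528 lower entries of cluster 4 were also detected in fewer cells than elsewhere. In cluster 6 all 3 preadipocyte markers listed were lower too, beside 18.2% of all symbols. The preadipocyte markers listed in clusters 1, 3 and 7 were all higher, with Mmp3 at 2.26 in cluster 1. In cluster 10 the 1 marker listed, F3, was higher by 0.38 but detected in 43.5% of cells against 77.3% elsewhere. Clusters 0, 2, 5, 8 and 9 were mixed, with Mmp3 at -1.37 in cluster 0, where F3 (0.70) and Itgb1 (0.71) were higher. No marker of immune, endothelial or glial cells had an entry, in a table from which the authors had removed such cells. Cluster 4 and cluster 10 stand apart in detection: the median over all their entries was 10.8% of cells inside cluster 4 against 63.0% elsewhere, and 8.1% inside cluster 10 against 62.35% elsewhere. The part of this low detection in the values below was not tested.

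All 9 synthesis genes with an entry were higher in cluster 11, and 8 of them, all but Acly, were higher in cluster 4. Acly has an entry in cluster 11 only, and Dgat1 and Dgat2 in clusters 4 and 11 only. These genes are thus counted only through clusters where they were higher, and for them the direction was fixed by the listing. The marker lists and the other gene lists hold such genes too, among them Cidec, Elovl3 and Ppargc1a. The median log2 fold change over the listed genes was 1.15 in cluster 11 and 0.73 in cluster 4, beside 0.50 over all higher entries of either cluster. For reading these counts, 25.6% of the 3903 symbols were listed as higher in cluster 11 and 13.9% in cluster 4. Of the 544 genes higher in cluster 4, 423 (77.8%) were also higher in cluster 11, where they made up 42.4% of the higher genes. Each cluster was formed from the expression of these same cells, so these differences describe the clusters and are no test of them.

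**Figure D1:**
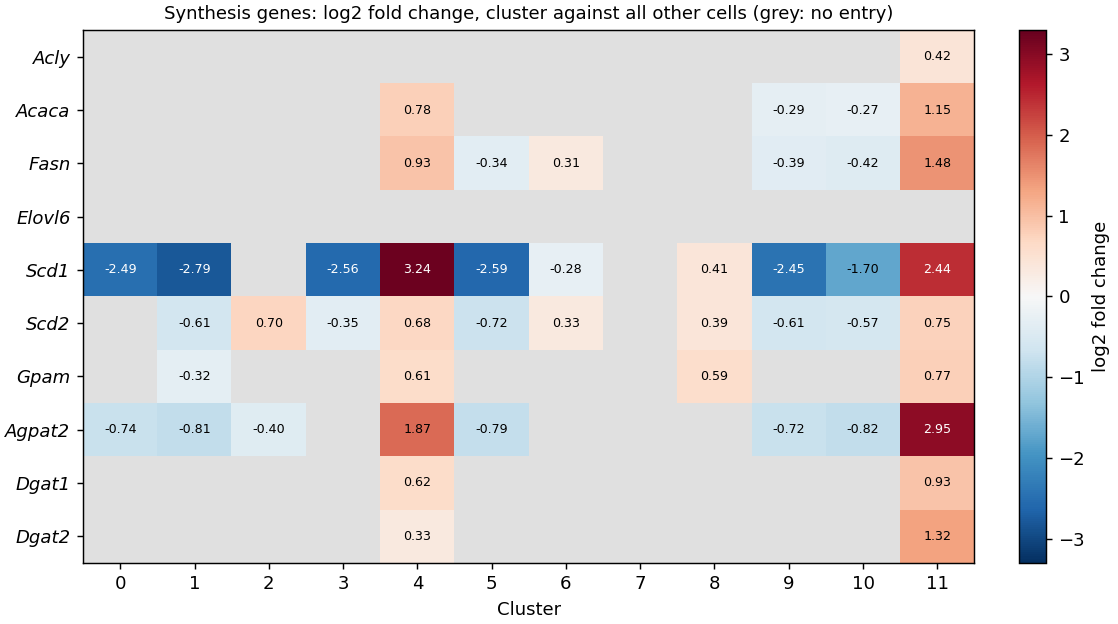
Authors' log2 fold change of each synthesis gene (vertical axis) in each cluster against all other cells (horizontal axis), with red for higher, blue for lower and grey for no entry. Cluster 11 is red for all 9 genes with an entry and cluster 4 for 8, Scd1 is blue in 7 other clusters, and cluster 7 holds no entry.

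The supply of carbon and malonyl-CoA comes first. Acly (chromosome 11, 100476353 to 100528000, minus strand, mm10) had 1 entry. Detection was 79.0% in cluster 11 and 43.9% elsewhere, with a log2 fold change of 0.42, the smallest of the 9 genes there. Acaca (chromosome 11, 84129672 to 84401651, plus strand) reached 93.2% of cluster 11 cells against 31.4% elsewhere, at a log2 fold change of 1.15. In cluster 4 its mean was higher by 0.78 on the log2 scale, yet it was detected in 17.8% of cells against 33.9% elsewhere. Its lower entries were small, -0.29 in cluster 9, where detection was 31.8% against 32.4%, and -0.27 in cluster 10, where it was 2.5% against 33.3%.

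Fasn (chromosome 11, 120805846 to 120824547, minus strand) makes palmitate from malonyl-CoA. Detection was 93.0% in cluster 11 against 38.2%, and its log2 fold change of 1.48 ranked 72 of 999 higher entries of that cluster. In cluster 4 the log2 fold change was 0.93 with detection in 22.7% of cells against 40.7%. Cluster 6, which also carries high proliferation markers, was the other cluster with higher Fasn, at 0.31 and with detection in 76.6% of cells against 36.0%. Lower entries were -0.34 in cluster 5, -0.39 in cluster 9 and -0.42 in cluster 10. In clusters 5 and 9 about as many cells had Fasn detected as elsewhere, 39.9% against 38.9% and 37.8% against 39.1%, so there the means differed more than the detection did.

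The sequence before the Fasn start site is shown because this chain-building enzyme was higher in both cluster 4 and cluster 11. Those before Agpat2 and Gpam are shown because these glycerol acyltransferases were higher in the same clusters. Each is the 250 bases before the annotated RefSeq start (GRCm38.p6), 5′ to 3′ on the gene's own strand, with no annotated exon in it. Capitals mark CCAAT, the box bound by NF-Y, or GGGCGG, the GC box bound by Sp1 family factors, on either strand, so that ATTGG is CCAAT read on the other strand.
Fasn promoter, chr11:120824548-120824797, minus strand: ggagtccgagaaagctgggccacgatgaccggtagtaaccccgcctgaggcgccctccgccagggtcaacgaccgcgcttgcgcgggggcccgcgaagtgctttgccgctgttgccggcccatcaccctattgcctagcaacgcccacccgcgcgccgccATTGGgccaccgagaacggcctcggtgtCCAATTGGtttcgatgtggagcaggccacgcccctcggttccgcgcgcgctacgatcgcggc
Agpat2 promoter, chr2:26604418-26604667, minus strand: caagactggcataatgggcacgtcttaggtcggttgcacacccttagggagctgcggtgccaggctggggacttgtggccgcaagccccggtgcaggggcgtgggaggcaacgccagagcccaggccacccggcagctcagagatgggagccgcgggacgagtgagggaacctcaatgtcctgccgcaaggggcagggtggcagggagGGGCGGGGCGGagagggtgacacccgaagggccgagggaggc
Gpam promoter, chr19:55127239-55127488, minus strand: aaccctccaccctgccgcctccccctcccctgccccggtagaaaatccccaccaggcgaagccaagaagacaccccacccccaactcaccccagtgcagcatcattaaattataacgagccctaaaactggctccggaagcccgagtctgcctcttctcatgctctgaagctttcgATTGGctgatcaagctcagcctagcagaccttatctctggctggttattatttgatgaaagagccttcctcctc

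The Fasn window holds 3 matches to CCAAT, 2 of which overlap on opposite strands, and no GGGCGG. The Agpat2 window holds 2 matches to GGGCGG and no CCAAT, and the Gpam window shown holds 1 CCAAT and no GGGCGG. A second Gpam start has a window with 1 GGGCGG and no CCAAT, which overlaps an annotated exon and is not shown. Among 32851 promoter windows of the same length, 33.8% hold CCAAT and 32.7% hold GGGCGG, so either match is common. The E-box CACGTG (6.02% of all windows), the TATAAA box (12.4%), a sterol regulatory element pattern (0.192%) and a DR1 repeat of the kind bound by PPARγ with RXR (0.0335%) were also searched on both strands. None of these letters is in the 7 windows found for 6 of the 10 genes. Only exact matches to each fixed pattern were counted, so variant sites may be present. Windows for Scd1, Scd2, Dgat1 and Dgat2 were not analysed here.

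Scd1 (chromosome 19, 44394455 to 44407879, minus strand) gave the widest range of the group. It was higher by 3.24 on the log2 scale in cluster 4, the entry ranked 3 of 544 there, and by 2.44 in cluster 11, ranked 13 of 999. Nearly every cell of both clusters had it detected, 97.7% in cluster 4 and 100% in cluster 11, against 61.7% and 64.6% of the respective other cells. Cluster 8 was higher by 0.41, with detection in 99.7% of its cells.

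Scd1 was lower in 7 clusters. The log2 fold changes lay between -2.79 and -2.45 in clusters 0, 1, 3, 5 and 9, where it was still detected in 39.7% to 52.0% of cells. In cluster 10 the value was -1.70, with detection in 13.6% of cells. Cluster 6 differed from these: 99.4% of its cells had Scd1 detected against 62.4% of other cells, yet its mean was lower by 0.28 on the log2 scale. Clusters 2 and 7 have no Scd1 entry, and combined they had it detected in 83.0% of cells at a mean, with 1 added, of 0.927 times that of all cells.

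No cell type known to lack Scd1 is in the table, so background RNA in the droplets could not be measured for it. In the same clusters the adipocyte gene Fabp4, a fatty acid carrier, was detected in 52.6% of cells of cluster 3, the lowest value of the 5, and in 67.7% of cells of cluster 9, the highest. Adipoq, the adipokine adiponectin, was detected in 2.2%, 1.2%, 1.9% and 2.7% of cells of clusters 0, 1, 3 and 5. The part of free RNA in the Scd1 detection there was not tested.

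Scd2 (chromosome 19, 44293674 to 44306864, plus strand) lies 87.59 kb from Scd1 and encodes a desaturase of the same kind. It had 10 entries like Scd1, but in a narrower range, from -0.72 in cluster 5 to 0.75 in cluster 11. In cluster 11 it was detected in 93.7% of cells against 73.2%. In cluster 4 its mean was higher by 0.68 while 44.1% of cells had it detected against 76.6% elsewhere. The other higher entries were 0.70 in cluster 2, with detection in 91.4% of cells, 0.39 in cluster 8, with 87.4%, and 0.33 in cluster 6, with 92.9%. Lower entries were -0.61 in clusters 1 and 9, -0.35 in cluster 3, and -0.57 in cluster 10, where detection was 10.6% against 75.6%. In cluster 5 detection was 73.5% both inside and outside, so that the value of -0.72 came with no difference in the share of cells.

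The desaturases pointed in opposite directions in cluster 6 alone, with Scd1 at -0.28 and Scd2 at 0.33, among the 9 clusters where both have an entry. Against cells outside clusters 4 and 11, a comparison described further on, both were higher there, Scd1 by 0.91 and Scd2 by 0.44. Placed on 1 scale, the mean in the cluster over the mean in all cells, with 1 added to each, Scd1 was at 5.23 in cluster 4 and 5.08 in cluster 11, and from 0.164 to 0.202 in clusters 0, 1, 3, 5 and 9. For Scd2 the same ratio was 1.67 in cluster 11, 1.51 in both clusters 2 and 4, and 0.628 in cluster 5. The order of clusters 4 and 11 for Scd1 is therefore nearly a tie on this scale, although its deposited values differ by more, because each is taken against a different set of other cells.

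**Figure D2:**
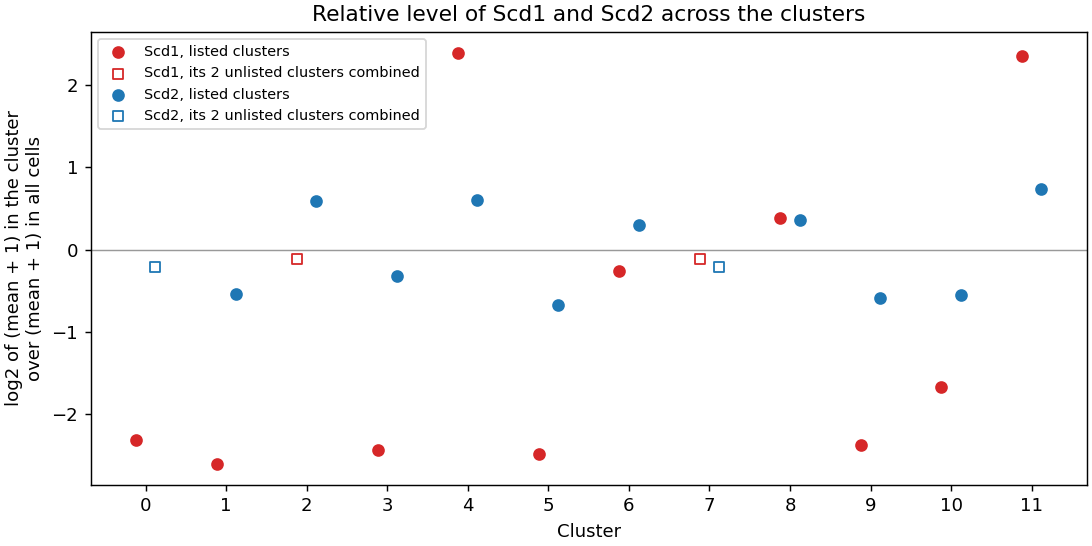
Level of Scd1 (red) and Scd2 (blue) in each cluster (horizontal axis) as log2 of the mean plus 1 over the mean plus 1 of all cells (vertical axis), with open squares for clusters without an entry, whose 2 clusters share 1 combined value. Scd1 is above 2 in clusters 4 and 11 and below -2 in clusters 0, 1, 3, 5 and 9, while Scd2 stays within 1 of zero.

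Gpam (chromosome 19, 55067268 to 55127238, minus strand) was higher in clusters 11 (0.77), 4 (0.61) and 8 (0.59). Detection was 80.2% against 22.2% in cluster 11 and 51.3% against 21.3% in cluster 8, but 13.2% against 24.1% in cluster 4. Its single lower entry was -0.32 in cluster 1, with 13.7% of cells against 24.6%.

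Agpat2 (chromosome 2, 26593057 to 26604417, minus strand), whose loss in people causes a lipodystrophy, had the largest value of the 9 genes in cluster 11. It was higher there by 2.95, ranked 6 of 999, with detection in 99.5% of cells against 38.7%. In cluster 4 it was higher by 1.87, ranked 14 of 544, with detection in 45.8% against 39.0%. On the scale relative to all cells it stood at 7.03 in cluster 11 and 2.92 in cluster 4. It was lower in 6 clusters, by between 0.40 in cluster 2 and 0.82 in cluster 10 on the log2 scale. In cluster 2 it was detected in more cells than elsewhere, 52.8% against 37.8%, and its value there was 0.21 when clusters 4 and 11 were left out of the other cells.

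The last step of triglyceride synthesis had entries in clusters 4 and 11 only. Dgat1 (chromosome 15, 76502015 to 76511953, minus strand) was found in 82.2% of cluster 11 cells against 15.6% elsewhere, with a log2 fold change of 0.93. Dgat2 (chromosome 7, 99153658 to 99182719, minus strand) was detected in 80.8% against 8.9%, with a log2 fold change of 1.32, and this gap of 71.9 percentage points was the widest of the 9 genes in cluster 11. In cluster 4 Dgat1 was at 0.62 with detection in 10.8% against 17.2%, and Dgat2 at 0.33 with 5.5% against 10.4%. The 10 clusters without an entry, combined, had Dgat1 detected in 16.1% and Dgat2 in 9.24% of cells.

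Detection of the synthesis genes in clusters 4 and 11 followed that of all higher entries of each cluster. In cluster 11 all 9 genes were detected in more cells than elsewhere, as were all 999 higher entries of that cluster. In cluster 4 this held for 2 of 8, Scd1 and Agpat2, and for 41 of all 544 higher genes (7.54%), while the other 6 genes had a higher mean in fewer detected cells. The mean in cluster 11 over that in cluster 4, with 1 added to each, was 2.41 for Agpat2, 1.99 for Dgat2, 1.55 for Fasn, 1.36 for Acaca, 1.29 for Dgat1, 1.16 for Gpam, 1.10 for Scd2 and 0.972 for Scd1. The added 1 draws these ratios toward 1, most for genes with low means, so their order depends in part on expression level. No spread over samples stands behind these ratios, so which neighbours in this order differ cannot be said.

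**Figure D3:**
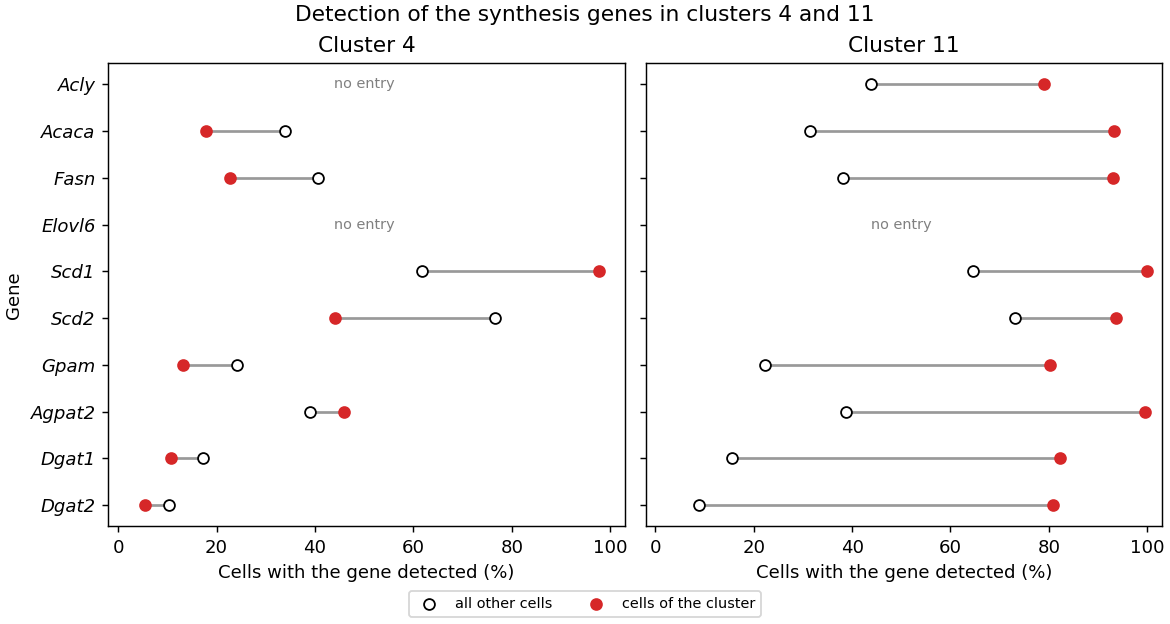
Percentage of cells with each synthesis gene detected (horizontal axis) inside cluster 4 (left) or cluster 11 (right), as red points, and in all other cells, as open points, with 1 line per gene joining the pair. In cluster 11 every red point lies right of the open one, from 79.0% to 100%, while in cluster 4 only Scd1 and Agpat2 do.

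These 2 clusters hold 11.1% of all cells. Because a mean cannot be below 0, the lowest cluster sets a lower limit on the mean of a gene over all cells. It also gives a range for the part of the summed normalized level that lies in clusters 4 and 11. That part was between 57.8% and 66.9% for Scd1 and between 38.5% and 75.4% for Agpat2. Each cell was scaled to the same total, so this is not the part of the transcripts counted. With the low detection in cluster 4, the part of the transcripts could differ. Every other cluster is compared with a set of cells that includes clusters 4 and 11, and their high levels enter each lower value.

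The fold changes were therefore also computed against the other cells outside clusters 4 and 11, a comparison added after the values had been seen. Of the 24 lower entries, 11 stayed lower by at least 0.25, 11 shrank below that size and 2 changed sign. Scd1 stayed lower in 6 of 7 clusters, with values from -1.70 in cluster 1 to -1.36 in cluster 9 for clusters 0, 1, 3, 5 and 9, and -0.62 in cluster 10. Scd2 stayed lower in 4 of 5 clusters. Agpat2 did so in 1 of 6, cluster 10, at -0.28, and Fasn in 0 of 3, Acaca in 0 of 2 and Gpam in 0 of 1. Values just under the minimum were -0.25 for Fasn in cluster 10 and -0.25 for Scd2 in cluster 3, written to 2 decimals.

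The signs that changed were those of Scd1 in cluster 6, from -0.28 to 0.91, and of Agpat2 in cluster 2, from -0.40 to 0.21. All 6 higher entries stayed higher, Scd1 in cluster 8 moving from 0.41 to 1.65, Scd2 in cluster 2 from 0.70 to 0.84 and Gpam in cluster 8 from 0.59 to 0.70. This was fixed in advance. The genes were high in clusters 4 and 11, so leaving those cells out could only raise the values. Against these cells, Scd1 was thus higher in clusters 6 and 8 as well as in clusters 4 and 11, and Fasn was higher in cluster 6 by 0.51.

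**Figure D4:**
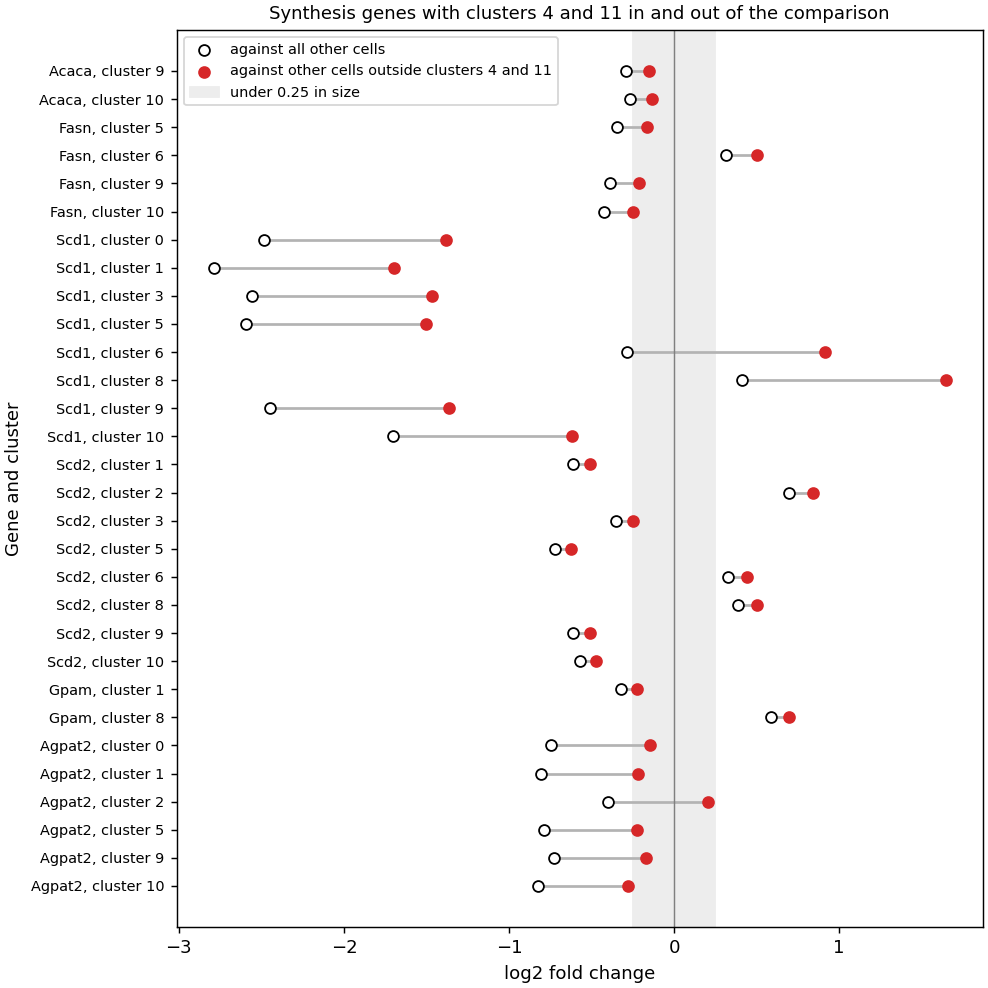
Log2 fold change (horizontal axis) of each gene and cluster (vertical axis) against all other cells, as open points, and against other cells outside clusters 4 and 11, as red points, with the grey band for sizes under 0.25. The Scd1 points move furthest, with cluster 6 going from -0.28 to 0.91 and cluster 8 from 0.41 to 1.65, and most lower Agpat2 points move into the band.

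By cluster, 2 synthesis genes were lower in cluster 0, where 5.33% of all symbols were listed as lower, 4 in cluster 1 (background 7.15%), and 2 in cluster 3 (background 4.61%). Among the clusters with high proliferation markers, 4 were lower in cluster 5 (background 7.33%), 5 in cluster 9 (background 5.33%), and 1 in cluster 6 (background 18.2%). Cluster 2 had 1 lower gene, against a background of 19.9%, and cluster 10 had 5, against 12.2%. Outside clusters 4 and 11, higher entries numbered 1 in cluster 2 (9.1% of all symbols), 2 in cluster 6 (18.1%) and 3 in cluster 8 (9.45%). Cluster 7 had no entry for any of the 10 genes. The 3 genes higher in cluster 8 were Scd1, Scd2 and Gpam. Fabp4 (1.25) and the droplet coat protein Plin2 (1.32) were higher in that cluster too.

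Other genes of fatty acid synthesis were read from a list of 22, of which 13 have an entry. In cluster 11, 8 were higher and 3 lower, with a median of 0.61 over those listed. Of all symbols, 25.6% were listed there as higher and 38.1% as lower. The largest value was 3.46 for Acsl1, which activates fatty acids to acyl-CoA, with detection in 99.5% of cells against 27.1%. Hsd17b12 (1.52) and Hacd2 (1.47), which act in the elongation cycle of very long chains, and Thrsp (0.98), a lipogenic protein also called Spot 14, followed. The 3 lower genes were the elongase Elovl1 (-0.37) and the polyunsaturated fatty acid desaturases Fads1 (-0.41) and Fads2 (-0.33). The list's other desaturases, Fads3, Scd3 and Scd4, have no entry in cluster 11. Fads1 was detected there in 26.6% of cells against 40.9%, and Fads2 in 5.9% against 27.2%.

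In cluster 4, 4 genes of this list were higher and 3 lower, where 13.9% of all symbols were listed as higher and 39.1% as lower. Acsl1 (1.98), Hsd17b12 (1.16), Thrsp (1.03) and Hacd2 (0.63) were higher, while Fads3 (-0.51), Elovl1 (-0.39) and the enoyl reductase Tecr (-0.38) were lower. Tecr was higher in cluster 11 by 0.33.

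The other triglyceride synthesis genes numbered 15, of which 6 have an entry. In cluster 11, 4 were higher and 1 lower, beside 25.6% and 38.1% of all symbols. Gpd1, which makes glycerol 3-phosphate, was at 1.78, the acyltransferase Gpat3 at 1.65 with detection in 93.0% of cells against 5.0%, the phosphatidate phosphatase Lpin1 at 1.40 and glycerol kinase Gk at 0.73. Agpat4 was lower at -0.26. In cluster 4, Gpd1 (1.57), Lpin1 (1.03) and Gk (0.62) were higher and none was lower, beside 13.9% and 39.1% of all symbols.

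Of 12 regulators of lipogenesis, 7 have an entry. Over all symbols, 25.6% were listed as higher in cluster 11 and 13.9% in cluster 4. In cluster 11, 5 were higher: Cebpa (1.92) and Pparg (0.98), the transcription factors of adipocyte differentiation, Srebf1 (0.91), which encodes the sterol regulatory factor of fatty acid synthesis, Insig1 (0.92), which holds its precursor in the endoplasmic reticulum, and Nr1h3 (0.34), the oxysterol receptor LXRα. Srebf2, the counterpart for cholesterol synthesis, was lower by 0.25 with detection in 39.2% of cells against 39.1%. In cluster 4, Cebpa (0.95), Insig1 (0.68), Pparg (0.67) and Srebf1 (0.36) were higher, each in fewer detected cells than elsewhere, as for Fasn and Acaca. Cluster 8 had Pparg at 0.37, Nr1h3 at 0.29 and Cebpa at 0.27. Cebpb, an early factor of differentiation, was listed in none of these clusters but in cluster 1 (0.29), cluster 5 (-0.39) and cluster 9 (-0.25). Mlxipl, the carbohydrate-responsive factor, has no entry.

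Uptake and storage genes are given for comparison, beside the shares of all symbols listed as higher, 25.6% in cluster 11 and 13.9% in cluster 4. For fatty acid uptake and binding, 6 of 9 genes have an entry, and 5 were higher in cluster 11 at a median of 2.74, with Fabp5 at 3.62, Fabp4 at 3.56, Cd36 at 2.74 and Lpl at 1.83. In cluster 4 the same 5 were higher at a median of 2.24. For lipid droplets and lipolysis, all 9 genes with an entry, of 10, were higher in both clusters, at medians of 1.97 in cluster 11 and 1.11 in cluster 4. The synthesis group's medians of 1.15 and 0.73 lay below these, and none of these differences was tested.

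For each synthesis gene listed in at least 4 clusters, the genes with the most similar log2 fold changes were found among those listed in all of the same clusters, by the root mean square difference. Scd1, over 10 clusters and 25 candidates, was nearest to the fatty acid transporter Cd36 (0.87), then Car3 (0.97) and Fabp4 (1.19). Agpat2, over 8 clusters and 55 candidates, was nearest to the triglyceride lipase Pnpla2 (0.41), then Fabp5 (0.53) and Cd36 (0.65). Scd2, over the same 10 clusters as Scd1 save for 1 exchange, was nearest to the mitochondrially encoded mt-Nd4 (0.21), mt-Nd5 (0.25) and mt-Nd6 (0.31), which encode subunits of respiratory complex I. Fasn, over 6 clusters and 111 candidates, was nearest to Fcor (0.15), Adipor2 (0.16) and Aplp2 (0.17).

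Acaca and Gpam were compared over 4 clusters each, with 176 and 335 candidates. Acaca was nearest to Pnpla8 (0.093), Bscl2 (0.098) and Ero1l (0.15), and Gpam to Cyb5a (0.062), Pparg (0.15) and Net1 (0.17). The lists share clusters and libraries, and a small difference over so few clusters is a description only.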

How the data were processed

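Single-cell RNA was measured with a droplet 3′ chemistry in 8 samples, 2 each of WT day 0, DKO day 0, WT day 6 and DKO day 6, grouped by their labels. The authors mapped reads to mm10 with Cell Ranger 6.0.0 (submitters' processing notes), pooled the captures at equal read depth, filtered cells and log-normalized them with Seurat, took out cells of immune, endothelial and glial type, and compared each of 12 clusters with the rest by MAST. No doublet removal is described, and with no single cells in the table neither doublets nor shared barcodes could be counted. Depth per sample is unknown.

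The authors deposited a log2 fold change per gene and cluster, with a pseudocount of 1, and the detected fraction of cells inside and outside the cluster, printed here as percent. The deposited p-values and adjusted p-values of the authors' comparison treat cells as replicates, and were neither printed nor used. The table has 0 unused columns of single samples. All entries reach 0.25 in log2 fold change, and the larger detection is at least 10.1%. The shares in background percentages are over the 3903 symbols with any entry.

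Cluster shares were solved by least squares from the 10 genes listed in every cluster, since detection over all cells must be equal from each, a step tested on simulated data. They sum to 99.9%. Detection over all cells differed by at most 0.098 percentage points between entries of a synthesis gene. Levels relative to all cells and values for unlisted clusters combined follow from the shares. A spreadsheet had turned 7 symbols into dates, and these were left out of the shares. Promoters are from RefSeq (GRCm38.p6) and gene coordinates from GENCODE M21 (mm10). Python 3.11.15, numpy 2.4.6, pandas 2.3.3 and matplotlib 3.10.9 were used.

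The genes and lists were chosen with earlier results of these data known. Named genes are the 10 members, all regulators, at most 4 per other list by size of log2 fold change in cluster 11 or 4, and the 3 nearest genes. The lower genes of the fatty acid list, Agpat4, Tecr, Plin2 in cluster 8, Nsdhl, Fdft1, Sqle, G0s2 and the markers were named after their values had been seen. Alternatives were other minimums, detection in place of fold change, other shares and, added later, a reference without clusters 4 and 11.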

Additional observations from a re-analysis of the deposited data

How the results depend on the processing

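A minimum log2 fold change of 1 left 0 higher synthesis genes in clusters 2, 6 and 8, 2 in cluster 4 and 5 in cluster 11, and a minimum of 0.5 left 0 in cluster 6 and 1 in cluster 8. With a minimum of 0.25 on the larger detected fraction, inside or outside the cluster, 5 genes were higher in cluster 4. Of these, Fasn (22.7% inside) and Acaca (17.8% inside) reached the minimum only by their detection in the other cells. Counting a gene as higher by detection gave 2 genes in cluster 2 and 2 in cluster 4. The leading cluster by difference of detection was 6 for both Scd1 and Scd2, and by detection in the cluster it was 11 for Scd1. Against cells outside clusters 4 and 11, Scd1 in cluster 6 turned to 0.91 and Agpat2 in cluster 2 to 0.21, and 11 lower values shrank below 0.25, which follows from leaving those cells out. Shares solved from 2687 genes moved no cluster share by over 0.058 percentage points and left all 65 values that use them in place. No pseudocount gives the same 47 ratios by construction, and setting unlisted genes to 0 left both medians in place. No paired analysis was possible because cells of every sample were pooled, and for the same reason no replicate could be left out. Unknown depth limits what low detection in clusters 4 and 10 can show.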

Other observations

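Cholesterol synthesis shares its acetyl-CoA supply with fatty acid synthesis. Of 19 of its genes searched, 9 have an entry. In cluster 11, 5 were higher and 1 lower, beside 25.6% and 38.1% of all symbols, with a median log2 fold change of 0.35 over those listed. Hmgcs1, which makes HMG-CoA, was higher by 1.49 there, with detection in 97.7% of cells against 47.3%, and by 0.77 in cluster 4. Acat2 (0.55), the cytosolic thiolase, Pmvk (0.37) and Nsdhl (0.32) followed in cluster 11, and Fdft1, which makes squalene, was lower by 0.25. In cluster 4, Fdps, which makes farnesyl diphosphate, was lower at -0.53.

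Cluster 7 had no synthesis gene entry, but Fdps (0.35) and the squalene epoxidase Sqle (0.36) were higher there, and G0s2, an inhibitor of triglyceride lipolysis, was higher by 1.20. Of the uptake genes, Lpl was higher there (0.59), while Fabp4 (-1.15) and Fabp5 (-1.30) were lower. Among the 3903 symbols, the cluster had 378 higher and 162 lower entries.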
